A study of Homo sapiens with 8 samples.

Results

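The genes described here are 10 surface or secreted regulators that tumor cells use to hold back immune cells: NT5E, ENTPD1, CD274, PDCD1LG2, CD276, VTCN1, LGALS9, CD47, PVR and NECTIN2. They were chosen by name, with the results of these arrays known, because NT5E moved in opposite directions in the lines studied. Features were matched by Entrez Gene number and symbol, and 9 of the 10 had a feature among the 23786 in the table. LGALS9, the gene of the lectin galectin-9, was not measured under its own number and is not analysed here. Its near-identical paralogue LGALS9C had a dim feature, which was not taken in its place.

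The 8 arrays (Affymetrix Human Gene 2.0 ST) measured RNA of the human melanoma lines WM983B and SK-Mel5, with 2 arrays in each of 4 groups. Cells of each line carried a pLKO1 lentivirus with a short hairpin RNA (shRNA) against EP300 (shp300), the gene of the histone acetyltransferase p300, or with a scrambled shRNA. All 4 groups thus shared transduction with polybrene and puromycin selection (1.5 µg/mL, begun 48 h after transduction), and the labels name no second hairpin. Nothing in the labels ties the 2 arrays of a group to separate cultures. The spread behind each p-value is that between these arrays and may be technical.

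CD73, the product of NT5E, sits on the cell surface and cuts AMP to adenosine, which dampens T cells and natural killer cells. CD39, the product of ENTPD1, makes that AMP from ATP and ADP. PD-L1 (CD274) and PD-L2 (PDCD1LG2) bind PD-1 on T cells, and B7-H3 (CD276) and B7-H4 (VTCN1) are other members of the B7 family. CD47 binds SIRP-alpha on macrophages and blocks engulfment. PVR (CD155) and NECTIN2 (CD112) are nectin-like adhesion proteins that bind TIGIT and the activating receptor DNAM-1 on lymphocytes.

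EP300 RNA fell in SK-Mel5, by 1.01 on the log2 scale (SE 0.155, limma adjusted p = 0.00377), but in WM983B its change was -0.07 (adjusted p = 0.832). WM983B results are therefore given as those of arrays labelled shp300. CREBBP, its paralogue, rose in both lines, by 0.69 (adjusted p = 0.00846, and 0.0573 without WM983B scrambled replicate 2) and 0.92 (adjusted p = 0.00328). All 9 markers of the melanocytic list stood above the median feature in every group, at percentiles from 69 to 100. In WM983B 6 of these 9 fell, and their summed log2 level went from 93.3 to 93.7 on the scrambled arrays to 79.2 to 81.5 on those labelled shp300; in SK-Mel5 3 fell and 1 rose. The share of all features that fell was 11.6% in WM983B and 8.8% in SK-Mel5. In bulk RNA fewer cells of a type and less RNA per cell cannot be told apart. MITF, the master regulator of melanocytes, fell by 1.71 in the WM983B arrays labelled shp300 (SE 0.143, adjusted p = 0.000173) and changed by -0.25 in SK-Mel5 (adjusted p = 0.31). Of 10 leukocyte markers 8 in WM983B and 10 in SK-Mel5 stood below the median feature, and PTPRC, the gene of CD45, lay between percentiles 3.98 and 6.77. The median value of an array was 4.26 to 4.28 in WM983B and 2.96 to 3.01 in SK-Mel5. The lines were thus apparently normalized apart, and levels are compared only within a line. Log2 changes of the lines may then not share a scale either, a limit on every difference between the lines given below.

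NT5E was higher on the WM983B arrays labelled shp300 and lower on the SK-Mel5 shp300 arrays. In WM983B its log2 level was 7.13 and 7.11 on the scrambled arrays and 9.62 and 9.69 on the arrays labelled shp300. Both arrays labelled shp300 lay above both scrambled arrays, 5.8-fold higher on average (a change of 2.54), and the SDs within the groups were 0.0117 and 0.0502. In SK-Mel5 the level was 5.59 and 5.56 on the scrambled arrays and 4.79 and 4.33 on the shp300 arrays. There both shp300 arrays lay below both scrambled arrays, 2.03-fold lower on average (-1.02). The shp300 arrays of SK-Mel5 were the most spread of the groups for this gene (SD 0.324), and the change was -0.79 without SK-Mel5 shp300 replicate 2 and -1.25 without SK-Mel5 shp300 replicate 1. The difference between the lines' changes was 3.55 on the log2 scale. These changes chose the gene, so they are given as a description with no test.

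Among the 22458 features with 1 symbol, 30 had a higher change than NT5E in WM983B, and 658 had a lower change in SK-Mel5. Only 4 features had a larger positive difference between the lines. As a background to this opposite pattern, limma called 105 of 23786 features higher in WM983B and lower in SK-Mel5, and 101 the other way, against 721 called higher in both lines and 1169 called lower in both. NT5E stood within its array at percentile 79.4 in scrambled WM983B and 97.4 with the shp300 label, and at 75.3 and 65.3 in SK-Mel5, so it was above the median feature in all 4 groups.

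**Figure D1:**
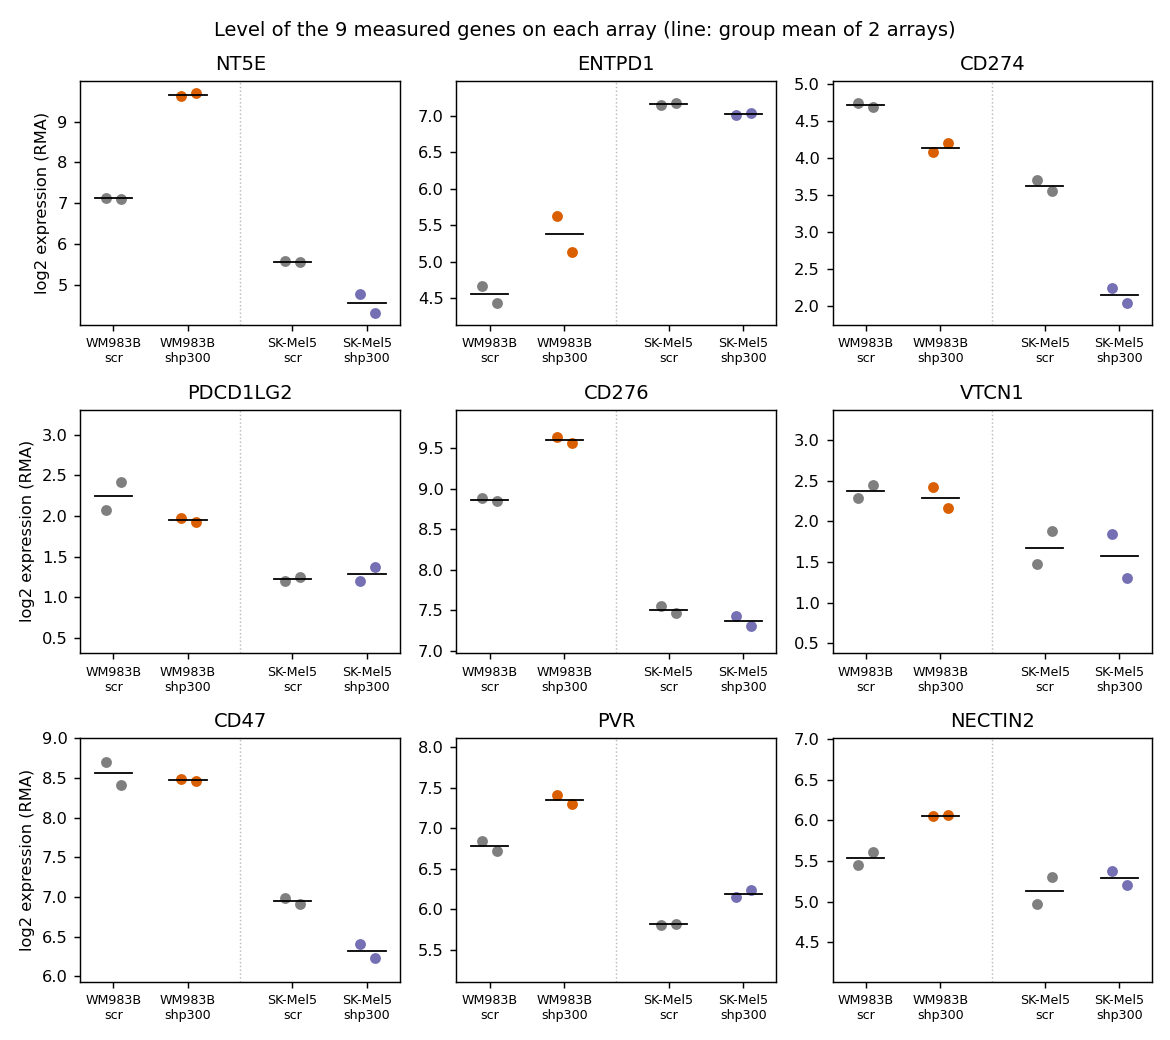
Log2 expression (RMA, vertical axis) of the 9 measured genes on each of the 8 arrays, by group (scr, scrambled); each point is an array and each line the mean of 2 arrays. NT5E lies higher in WM983B with the shp300 label (9.62 and 9.69 against 7.13 and 7.11) and lower in SK-Mel5 (4.79 and 4.33 against 5.59 and 5.56); vertical scales differ between panels and levels cannot be set against each other between lines.

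Promoters are shown for 3 members: NT5E, CD276, whose values followed those of NT5E most closely among the members, and CD274, which was lower in both lines. Each runs from 250 bases before to 50 bases after the start of transcription in RefSeq (GRCh38.p14, + strand) and is written 5′ to 3′. The windows are chr6:85449833-85450132 for NT5E, chr15:73684133-73684432 for CD276 (the first of 2 promoters listed) and chr9:5450292-5450591 for CD274. Capitals mark matches, on either strand, to 8 motifs: TGANTCA (AP-1), TGACGTC (the first 7 letters of a cAMP response element), CACGTG and CATGTG (E-boxes of the kind MITF binds), GGGCGG (SP1), the core of the interferon-stimulated element (GAAA, any 2 bases, GAAA), TTCNNNGAA (interferon gamma activated site) and GGAATG (TEAD).
NT5E promoter: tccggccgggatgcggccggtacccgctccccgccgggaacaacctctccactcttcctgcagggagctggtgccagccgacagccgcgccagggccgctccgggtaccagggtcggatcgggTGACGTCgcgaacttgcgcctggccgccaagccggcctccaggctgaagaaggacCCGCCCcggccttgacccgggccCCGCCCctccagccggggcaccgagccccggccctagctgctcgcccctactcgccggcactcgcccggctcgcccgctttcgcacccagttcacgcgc
CD276 promoter: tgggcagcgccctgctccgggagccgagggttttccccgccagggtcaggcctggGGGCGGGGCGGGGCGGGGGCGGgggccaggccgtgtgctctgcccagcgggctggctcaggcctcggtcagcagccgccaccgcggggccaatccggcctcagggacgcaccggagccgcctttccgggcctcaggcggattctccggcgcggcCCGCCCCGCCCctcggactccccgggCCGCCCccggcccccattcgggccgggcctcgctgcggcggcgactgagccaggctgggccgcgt
CD274 promoter: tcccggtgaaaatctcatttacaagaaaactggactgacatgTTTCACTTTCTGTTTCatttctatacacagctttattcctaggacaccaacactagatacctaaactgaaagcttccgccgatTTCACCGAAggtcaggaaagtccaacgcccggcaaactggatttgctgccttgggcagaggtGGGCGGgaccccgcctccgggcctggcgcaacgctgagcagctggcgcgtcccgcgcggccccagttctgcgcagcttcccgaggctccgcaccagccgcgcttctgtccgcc

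The NT5E window held 1 match to TGACGTC, at position -127 from the start, and 2 SP1 boxes. Of 35116 promoters in the RefSeq table, 3.45% held TGACGTC and 45% an SP1 box. NECTIN2 was the only other member with TGACGTC in a listed promoter. The CD276 window held 7 SP1 boxes and no match to the other motifs. The CD274 window held 2 overlapping matches to the interferon-stimulated core, at -208 and -202, 1 to TTCNNNGAA at -125 and 1 SP1 box. These motifs occurred in 3.57% (interferon-stimulated core) and 7.66% (TTCNNNGAA) of all promoters. Among the 9 members with a listed promoter, LGALS9 was the only other with that core. None of these 3 windows held AP-1 (7.71% of all promoters), CACGTG (7.26%), CATGTG (11.1%) or the TEAD motif (14%). A match describes letters in a window and is not a measured binding site.

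ENTPD1, whose product acts one step before CD73, rose in WM983B. Its log2 level there was 4.67 and 4.43 on the scrambled arrays and 5.63 and 5.13 on the arrays labelled shp300. The groups did not overlap, and the change was 0.83 (1.78-fold, SE 0.17, limma adjusted p = 0.00994, with n = 2 in each group here and below). In SK-Mel5 the scrambled arrays had 7.14 and 7.18 and the shp300 arrays 7.02 and 7.04. Those arrays did not overlap either, but the change of -0.13 (95% interval -0.53 to 0.26, adjusted p = 0.705) was not called. The changes differed between the lines by 0.96 (adjusted p = 0.0454). Without WM983B scrambled replicate 2 the adjusted p of the rise was 0.0773. The call of the difference was lost without any 1 array other than WM983B shp300 replicate 2 (adjusted p = 0.0841 without WM983B shp300 replicate 1, 0.084 and 0.155 without WM983B scrambled replicates 1 and 2, 0.115 and 0.121 without the SK-Mel5 scrambled replicates, 0.0945 and 0.0992 without the SK-Mel5 shp300 replicates), and after quantile normalization of all arrays (0.0514).

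Over the 8 members other than NT5E, limma called 5 in WM983B, 4 higher and 1 lower, where 22.5% of all features were called (10.9% higher, 11.6% lower). In SK-Mel5 it called 2, both lower, where 16.4% of all features were called (7.57% higher, 8.8% lower). The difference between lines was called for 3, all higher in WM983B than in SK-Mel5, where 9.46% of all features were called (5% higher, 4.46% lower). The members were chosen with these contrasts known, so nothing is read from these counts. Scrambled and shp300 arrays did not overlap for 58.4% of all features in WM983B and 51.4% in SK-Mel5, and the median change of all features was 0.02 and 0.01.

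**Figure D2:**
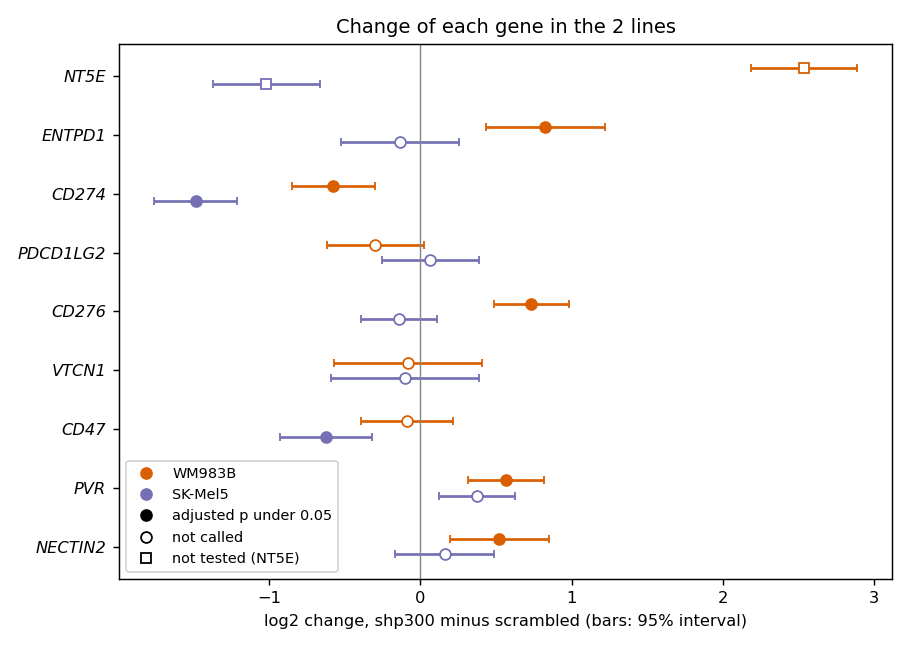
Log2 change (shp300 minus scrambled, horizontal axis) of each measured gene in WM983B and SK-Mel5, with 95% intervals from limma; filled points have an adjusted p under 0.05, open circles do not, and open squares mark NT5E, which was not tested. NT5E lies at 2.54 and -1.02, CD274 at -0.57 and -1.49, and ENTPD1, CD276, PVR and NECTIN2 are called higher in WM983B.

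CD274, the gene of PD-L1, fell in both lines. In SK-Mel5 its log2 level was 3.70 and 3.56 on the scrambled arrays and 2.24 and 2.05 on the shp300 arrays. Both shp300 arrays were lower than both scrambled arrays, a fall of 2.8-fold (change -1.49, SE 0.119, limma adjusted p = 0.000219). In WM983B the level was 4.74 and 4.69 on the scrambled arrays and 4.08 and 4.20 on the arrays labelled shp300, again without overlap. The fall there was 1.49-fold (change -0.57, SE 0.119, adjusted p = 0.0106). That fall was no longer called without scrambled replicate 1 (adjusted p = 0.0675) or 2 (0.0528) or shp300 replicate 1 (0.0623) of the line.

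The CD274 changes differed by 0.91 between the lines (SE 0.169, adjusted p = 0.0161), the fall being larger in SK-Mel5. That difference was no longer called without scrambled replicate 1 (adjusted p = 0.0574) or 2 (0.0701) of WM983B, WM983B shp300 replicate 2 (0.0575) or SK-Mel5 scrambled replicate 1 (0.0648). CD274 stood near the middle of the array: at percentile 54.4 in scrambled WM983B and 56.3 in scrambled SK-Mel5, and at 48.6 and 37.3 with shp300. The lower groups lay below the median feature and were not shown to be above background, so the size of the fall is uncertain.

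PDCD1LG2, the gene of PD-L2, the next protein-coding gene after CD274 on chromosome 9, was dim everywhere. Its log2 level was 2.08 and 2.42 in scrambled WM983B, 1.98 and 1.93 with the shp300 label, 1.20 and 1.24 in scrambled SK-Mel5, and 1.21 and 1.37 with shp300. All 8 arrays placed it between percentiles 9.59 and 23.2, and neither change was called (-0.30, adjusted p = 0.189, and 0.07, adjusted p = 0.836). VTCN1, the gene of B7-H4, was also low in rank, between percentiles 14 and 32.4. Its levels ran from 2.16 to 2.45 in WM983B and from 1.30 to 1.88 in SK-Mel5, with overlapping groups and changes of -0.08 (adjusted p = 0.857) and -0.10 (adjusted p = 0.838). For both genes the arrays gave no level shown to be above background, so a change of either may have gone unmeasured.

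CD276, the gene of B7-H3, stood high on every array, between percentiles 91.6 and 97.4. In WM983B its level was 8.88 and 8.84 on the scrambled arrays and 9.64 and 9.56 on the arrays labelled shp300. It rose there by 0.74 (1.66-fold, SE 0.108, limma adjusted p = 0.00217), and the call held when each array was left out in turn. In SK-Mel5 the level was 7.55 and 7.47 on the scrambled arrays and 7.43 and 7.31 on the shp300 arrays, which did not overlap. That change of -0.14 (95% interval -0.39 to 0.11, adjusted p = 0.478) was not called. The changes differed by 0.88 between the lines (SE 0.152, adjusted p = 0.0126), a call lost without WM983B scrambled replicate 2 (0.0583) or SK-Mel5 scrambled replicate 1 (0.0531).

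CD47 fell in SK-Mel5. Its level there was 6.99 and 6.91 on the scrambled arrays and 6.41 and 6.23 on the shp300 arrays, a fall of 1.54-fold without overlap (change -0.63, SE 0.132, limma adjusted p = 0.0149). The call was lost without SK-Mel5 scrambled replicate 1 (adjusted p = 0.088) or 2 (0.0596) or SK-Mel5 shp300 replicate 2 (0.0792). In WM983B the scrambled arrays had 8.70 and 8.42 and the arrays labelled shp300 8.49 and 8.46. The groups overlapped there and the change was -0.09 (95% interval -0.39 to 0.22, adjusted p = 0.728). The difference between the lines was 0.54 and was not called (adjusted p = 0.123).

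PVR, the poliovirus receptor and main ligand of TIGIT, rose in WM983B. Its level was 6.85 and 6.72 on the scrambled arrays and 7.41 and 7.29 on the arrays labelled shp300, a rise of 1.48-fold without overlap (change 0.57, SE 0.11, limma adjusted p = 0.00766). Without WM983B scrambled replicate 2 its adjusted p was 0.0606. In SK-Mel5 the scrambled arrays had 5.81 and 5.82 and the shp300 arrays 6.15 and 6.24, also without overlap. The SK-Mel5 change of 0.38 (SE 0.11, adjusted p = 0.0545) just missed the threshold. It passed in 4 of 8 other settings: trend and robust eBayes (0.0201), no dim features (0.0156), each array centred (0.0476) and the looser threshold of 0.1. The remaining settings did not call it (adjusted p up to 0.0951). No fit with 1 array left out called it either, with changes of 0.33 to 0.42. The difference between the lines was 0.19 (95% interval -0.17 to 0.55, adjusted p = 0.522).

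NECTIN2, on the same chromosome 19 as PVR, rose in WM983B from 5.45 and 5.62 on the scrambled arrays to 6.05 and 6.06 on the arrays labelled shp300. The change was 0.52 (1.44-fold, SE 0.142, limma adjusted p = 0.0327). It had the highest adjusted p among the called members and was lost when any 1 WM983B array was left out (0.176 and 0.0773 without scrambled replicates 1 and 2, 0.11 and 0.117 without shp300 replicates 1 and 2). In SK-Mel5 the scrambled arrays had 4.97 and 5.30 and the shp300 arrays 5.38 and 5.21, which overlapped (change 0.16, adjusted p = 0.548). The difference between the lines was 0.36 (adjusted p = 0.336).

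The pattern of NT5E over the 8 arrays, after subtracting the mean of each line, was set against all features with 1 symbol. The 5 with the highest Pearson correlation were SLC20A1, a phosphate transporter (r = 0.996), ADAM9, a membrane metalloprotease (0.994), FKBP1B (0.992), MALT1, a protease of NF-kB signaling (0.991), and CXXC5 (0.991). Their changes were 1.74, 0.96, 1.13, 1.11 and 1.06 in WM983B and -0.85, -0.30, -0.44, -0.51 and -0.48 in SK-Mel5, so each moved less than NT5E. Among the members, CD276 had r = 0.974 with NT5E, ENTPD1 0.87, NECTIN2 0.701, PVR 0.541, CD47 0.248, CD274 0.024, VTCN1 0.008 and PDCD1LG2 -0.763. The points are 2 arrays of each of 4 groups, so the groups' means make up most of such a correlation, which is a description only.

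**Figure D3:**
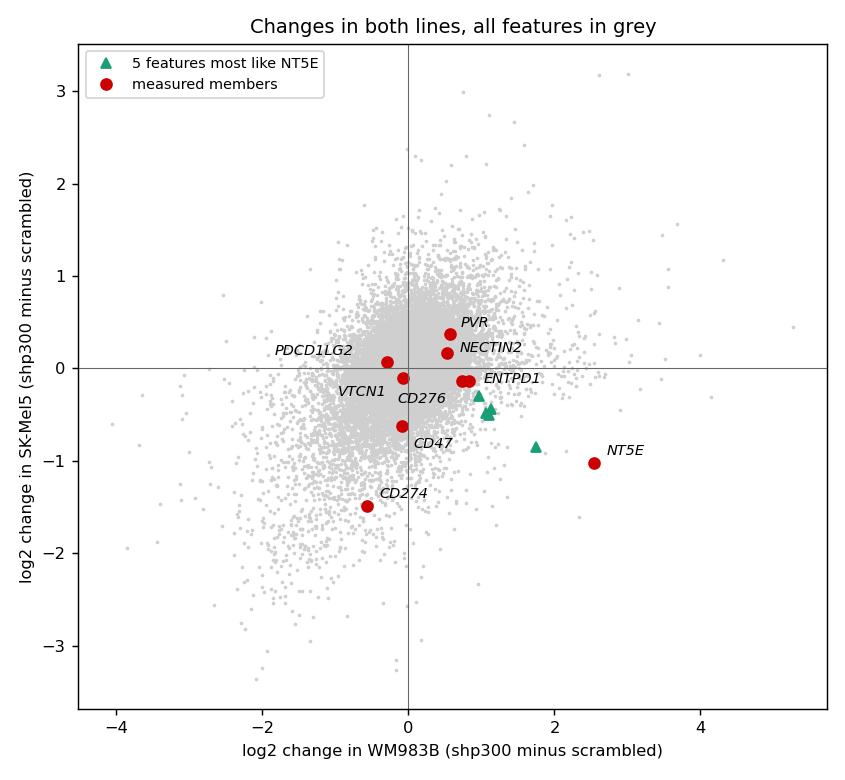
Log2 change (shp300 minus scrambled) in WM983B (horizontal axis) against that in SK-Mel5 (vertical axis) for all 23786 features (grey), the 9 measured members (red) and the 5 features most like NT5E (green). NT5E lies at the lower right (2.54, -1.02), beyond SLC20A1 (1.74, -0.85).

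Of 19 other genes of extracellular nucleotide and adenosine handling, 1 rose and 3 fell in WM983B (median change -0.08), and none rose and 3 fell in SK-Mel5 (median -0.02). Of all features 22.5% and 16.4% were called in these comparisons, so the list's counts lie near the background. P2RX7, the ATP-gated channel, fell in both lines, by 1.62 (limma adjusted p = 0.000102) and 1.47 (adjusted p = 0.000225). SLC29A1, the transporter ENT1 that carries adenosine across the membrane, fell in both, by 1.02 (WM983B, adjusted p = 0.000674) and 0.49 (SK-Mel5, adjusted p = 0.0251). ADA, adenosine deaminase, fell by 1.31 in WM983B (adjusted p = 0.000196) and changed by -0.29 in SK-Mel5 (adjusted p = 0.144). ENPP1, a surface enzyme that hydrolyzes ATP and cyclic GAMP, fell by 1.45 in SK-Mel5 (adjusted p = 0.000259) and changed by -0.32 in WM983B (adjusted p = 0.11).

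ADK, adenosine kinase, rose by 0.62 in WM983B (adjusted p = 0.00743), a call lost without WM983B scrambled replicate 2 (0.0543). The SLC29A1 call in SK-Mel5 was lost without SK-Mel5 scrambled replicate 1 (0.0942) or 2 (0.119), without SK-Mel5 shp300 replicate 1 (0.0963) or 2 (0.0668), and from the 4 SK-Mel5 arrays alone (0.0577). No adenosine receptor gene (ADORA1, ADORA2A, ADORA2B, ADORA3) was called in either line.

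Among the receptors and partners of the members, 4 of 12 rose and 2 fell in WM983B (median 0.17), and 1 rose and 2 fell in SK-Mel5 (median 0.03). Over all features 10.9% rose and 11.6% fell in WM983B, and 7.57% rose and 8.8% fell in SK-Mel5. NECTIN3, a partner of PVR and NECTIN2 in cell contacts, rose by 1.01 in WM983B (limma adjusted p = 0.00159) and fell by 0.57 in SK-Mel5 (adjusted p = 0.0275), with a called difference of 1.58 (adjusted p = 0.00384). Its fall was lost without SK-Mel5 scrambled replicate 1 (0.152) or 2 (0.0692), without SK-Mel5 shp300 replicate 1 (0.0709) or 2 (0.11), and from the 4 SK-Mel5 arrays alone (0.0548). SIRPA, the receptor of CD47, which melanocytic cells also express, fell in both, by 0.72 (WM983B, adjusted p = 0.003) and 0.46 (SK-Mel5, adjusted p = 0.0293). The SK-Mel5 call was lost without SK-Mel5 scrambled replicate 1 (0.124) or 2 (0.114), SK-Mel5 shp300 replicate 1 (0.0589) or 2 (0.123) or either WM983B scrambled array (0.0529), and from the 4 SK-Mel5 arrays alone (0.0679).

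THBS1, the gene of thrombospondin-1, a secreted ligand of CD47, rose by 1.09 in WM983B (adjusted p = 0.00175) and stood low in SK-Mel5 (percentile 33.2 in the lower group). CD96, a lymphocyte receptor of PVR, rose in both lines by 1.06 (adjusted p = 0.000693) and 1.19 (adjusted p = 0.000592), from percentiles 21.1 and 25.7, which are not shown to be above background. PDCD1, the gene of PD-1, and TIGIT were not called in either line.

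The interferon gamma to PD-L1 axis, which controls CD274, had 5 of 15 genes higher and 3 lower in WM983B (median 0.19), and 1 higher and 2 lower in SK-Mel5 (median 0.08). The shares over all features were 10.9% higher and 11.6% lower in WM983B, and 7.57% and 8.8% in SK-Mel5. CMTM6, which protects PD-L1 protein from breakdown, rose in both, by 0.98 (WM983B, limma adjusted p = 0.000754) and 0.60 (SK-Mel5, adjusted p = 0.0097). Its close relative CMTM4 fell by 1.61 (adjusted p = 0.000188) and 1.81 (adjusted p = 0.00017). The kinase gene JAK2, near CD274 on chromosome 9, fell in both, by 0.54 (WM983B, adjusted p = 0.00925) and 0.46 (SK-Mel5, adjusted p = 0.0255). IFNGR2, a receptor chain, rose by 0.72 in WM983B (adjusted p = 0.00254), and STAT3 by 0.71 (adjusted p = 0.00306). SOCS3 fell there by 0.97 (adjusted p = 0.00264). In SK-Mel5 IFNGR2, STAT3 and SOCS3 changed by 0.08, -0.35 and 0.01 (adjusted p = 0.737, 0.0748 and 0.99). None of these was called, but STAT3 was called lower there in 3 of 8 other settings. IRF1, the factor through which interferon gamma raises CD274, was named after its values were seen. It rose by 1.21 in WM983B (adjusted p = 0.00646) and changed by 0.27 in SK-Mel5 (adjusted p = 0.515). Whether IRF1 or the other genes of this axis had a part in the CD274 changes was not tested.

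Several of these calls were lost with fewer arrays while the change stayed similar. The CMTM6 rise in SK-Mel5 (0.50 to 0.70 with 1 array left out) was lost without SK-Mel5 scrambled replicate 2 (0.0632) and in a fit of that line's 4 arrays (0.0567). The JAK2 change in WM983B was -0.58 to -0.50 with 1 array left out, and its call was lost without WM983B scrambled replicate 1 (0.065). In SK-Mel5 the change was -0.54 to -0.37, and the call was lost without SK-Mel5 scrambled replicate 1 (0.0901) or 2 (0.126) or SK-Mel5 shp300 replicate 2 (0.119), from the 4 SK-Mel5 arrays alone (0.0833) and with trend and robust eBayes (0.0506).

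Of 14 genes reported to act on NT5E in other systems, 7 rose and 1 fell in WM983B (median 0.41). In SK-Mel5, 5 rose and 2 fell (median 0.21), and the number that fell depended on single arrays. Whether these genes had a part in the NT5E changes was not tested. Of all features 10.9% rose and 11.6% fell in WM983B, and 7.57% and 8.8% in SK-Mel5. TGFBR2, a receptor of TGF-beta, rose by 1.67 (limma adjusted p = 7.42e-05) and 1.16 (adjusted p = 0.000481), and JUN, an AP-1 factor, by 1.96 (adjusted p = 0.000254) and 1.34 (adjusted p = 0.00208). TGFBR1, the other receptor chain, fell in both, by 0.84 (adjusted p = 0.00137) and 1.30 (adjusted p = 0.000272). In the main fit no call of a difference between the lines was made for these 3 genes (differences 0.51, 0.62 and 0.46, adjusted p = 0.0928, 0.19 and 0.121). In 7 other settings with no array left out, the difference was called in 3 for TGFBR2, 2 for TGFBR1 and 0 for JUN. The 1 gene of the list with a called difference in the main fit was SMAD3, a transducer of TGF-beta signals, named after its values were seen. It rose by 0.77 in WM983B (adjusted p = 0.00372) and changed by 0.01 in SK-Mel5 (adjusted p = 0.993), a difference of 0.77 (adjusted p = 0.0371). The difference of SMAD3 was 0.65 to 0.88 with 1 array left out, and its call was lost without any 1 array other than SK-Mel5 shp300 replicate 2 (adjusted p = 0.0623 to 0.13).

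Of 9 surface markers of mesenchymal cells, which also carry CD73, 5 rose and 1 fell in WM983B (median 0.38). None rose and 1 fell in SK-Mel5 (median 0.06), and the difference between the lines was called for 4. Of all features 10.9% rose and 11.6% fell in WM983B, 7.57% and 8.8% in SK-Mel5, and 9.46% had a called difference. MCAM, the melanoma adhesion molecule CD146, moved as NT5E did: it rose by 0.96 in WM983B (limma adjusted p = 0.00321) and fell by 2.34 in SK-Mel5 (adjusted p = 0.000106), with a called difference of 3.29 (adjusted p = 0.000511). NGFR, the neurotrophin receptor CD271, rose by 2.19 in WM983B (adjusted p = 3.86e-05) and changed by -0.30 in SK-Mel5 (adjusted p = 0.147). ALCAM rose by 1.35 in WM983B (adjusted p = 0.00022) and changed by -0.06 in SK-Mel5 (adjusted p = 0.836). THY1 (CD90) was not called in either line, and ENG (CD105), which with CD73 and CD90 marks mesenchymal stromal cells, was the 1 gene of the list that fell in WM983B (-0.45, adjusted p = 0.0434). Its call was lost without any 1 of the 4 WM983B arrays (adjusted p = 0.0896 to 0.213) or either SK-Mel5 scrambled array (0.0501).

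Complement regulators and natural killer cell ligands were also measured. As background, 10.9% of all features rose and 11.6% fell in WM983B, and 7.57% rose and 8.8% fell in SK-Mel5. Of 5 complement genes, 2 rose in WM983B and 1 fell in SK-Mel5. The membrane protector CD59 rose by 0.56 in WM983B (limma adjusted p = 0.00537) and fell by 0.77 in SK-Mel5 (adjusted p = 0.00177), a difference of 1.33 (adjusted p = 0.00248). CD46, a membrane cofactor of complement breakdown, rose by 0.60 in WM983B (adjusted p = 0.0101), which did not pass when scrambled replicate 2 (0.0775) or shp300 replicate 1 (0.0632) of that line was left out. Of 9 natural killer cell ligands, 4 rose in WM983B and 1 in SK-Mel5. MICB, a ligand of the receptor NKG2D, rose by 0.53 (adjusted p = 0.0228) and 1.20 (adjusted p = 0.000875). All 4 calls in WM983B were lost without WM983B scrambled replicate 1 (MICB 0.123) or WM983B shp300 replicate 1 (MICB 0.121), and 1 was left without WM983B scrambled replicate 2 (MICB 0.0785).

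Of 25 other measured immune regulators of tumor cells, 5 rose and 2 fell in WM983B (median 0.12), and 3 rose and 1 fell in SK-Mel5 (median -0.01). Over all features the shares were 10.9% and 11.6% in WM983B, and 7.57% and 8.8% in SK-Mel5. ICAM1, an adhesion ligand of lymphocytes, rose by 1.04 (limma adjusted p = 0.00056) and 0.61 (adjusted p = 0.00935). CD70, a ligand of CD27, rose by 1.10 in WM983B (adjusted p = 0.000568). TNFRSF14 (HVEM), the ligand of BTLA, fell by 0.97 in WM983B (adjusted p = 0.00402) and rose by 0.67 in SK-Mel5 (adjusted p = 0.0264), the reverse of NT5E. BTN3A1, a butyrophilin sensed by gamma delta T cells, rose by 0.62 in WM983B (adjusted p = 0.0178) and fell by 0.72 in SK-Mel5 (adjusted p = 0.0127). The BTN3A1 rise was lost without WM983B scrambled replicate 1 (0.0908) or 2 (0.0829) or WM983B shp300 replicate 1 (0.0843), and its fall without SK-Mel5 scrambled replicate 2 (0.0799) or SK-Mel5 shp300 replicate 2 (0.0637). The TNFRSF14 rise was lost without SK-Mel5 scrambled replicate 1 (0.13) or 2 (0.089), SK-Mel5 shp300 replicate 2 (0.13) or either WM983B scrambled array (0.0514), and from the 4 SK-Mel5 arrays alone (0.071). The ICAM1 rise in SK-Mel5 was lost without SK-Mel5 scrambled replicate 2 (0.0646).

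**Figure D4:**
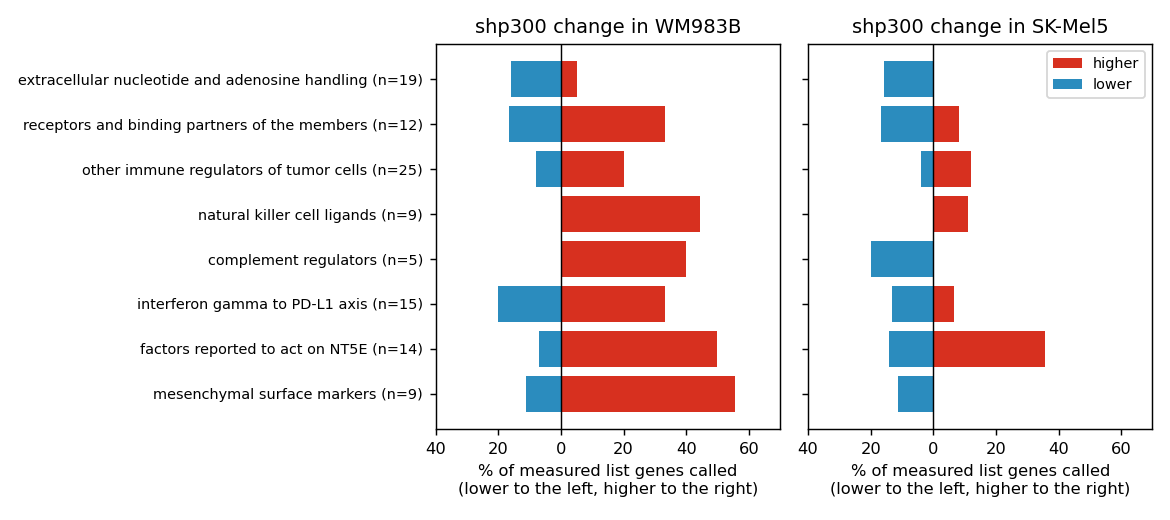
Share of the measured genes of each list (n, number measured) called higher (red, to the right) or lower (blue, to the left) by limma at an adjusted p under 0.05, in WM983B and SK-Mel5. Over all features 10.9% were called higher and 11.6% lower in WM983B, and 7.57% and 8.8% in SK-Mel5.

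Markers of other cells moved beside these results in WM983B. Fibroblast activation protein FAP rose by 1.81 there (limma adjusted p = 8.99e-05), from percentile 75.4 to 92.6, and DCN by 0.71 (adjusted p = 0.0201, but 0.0827 and 0.105 without WM983B scrambled replicate 1 or 2 and 0.108 without WM983B shp300 replicate 1), so that 2 of 5 fibroblast markers rose. The summed log2 level of the 5 was 27.2 to 27.3 on the scrambled arrays and 29.2 to 29.5 on those labelled shp300. COL3A1 and PDGFRA lay at percentiles 28.4 to 32.7. LUM, COL3A1 and PDGFRA changed by -0.25, -0.23 and 0.04 in WM983B (adjusted p = 0.222, 0.258 and 0.899), and none was called. The sum therefore does not stand for a rise of all 5. Of 10 leukocyte markers 1 rose, LYZ (1.74, adjusted p = 0.000334), and the other 9 were not called. The summed level of the 10 went from 28.9 to 29.2 up to 30.8 to 30.9, with PTPRC at percentile 4.24 and 4.38. None of 6 endothelial markers was called in either line. In SK-Mel5 DCN rose (1.33, adjusted p = 0.00167) and LUM fell (-0.88, adjusted p = 0.00271), with summed fibroblast levels of 18.7 to 19.3 and 19.6 to 19.7. Over all features 10.9% rose in WM983B, and 7.57% rose and 8.8% fell in SK-Mel5. The part of these markers in the members' results was not tested.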

How the data were processed

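The authors deposited RMA expression on the log2 scale, computed with affy 1.36.1 in R 2.15.1, per the submitters' processing notes. How probes were grouped into features was not stated there. Feature IDs are Entrez Gene numbers with a suffix, and 22458 of 23786 matched 1 symbol, 1328 none and 0 several. All 8 columns were used and no feature was filtered.

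A 4-group linear model of the 8 arrays was fitted with limma 3.58.1 (lmFit and eBayes, R 4.3.3). It gave the shp300 change of each line and, as an interaction, the WM983B change less the SK-Mel5 change. Tests were two-sided, with Benjamini-Hochberg adjustment within each comparison across the whole table. An adjusted p under 0.05 was called, and "rose" and "fell" refer to called features. Percentiles are ranks of a feature among all features of an array.

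The members and lists were chosen with earlier results of these data known. Named genes were the members, EP300, CREBBP, MITF, up to 4 genes of each list with the smallest p in a line, and the 5 features most correlated with NT5E. IRF1, SMAD3, RGMB, FAP, DCN, LUM, LYZ, ENG, and other genes outside this rule (ADORA1, ADORA2A, ADORA2B, ADORA3, PDCD1, TIGIT, THY1, COL3A1, PDGFRA and PTPRC), were named after their values were seen. Of the list genes, 1 is not reported here and was left out of its list's counts. CD24 and RAET1G had no feature. The fit was tested on simulated data with 200 changed features, far fewer than were called in the data. With fewer changed features the Benjamini-Hochberg adjustment is stricter, so the shares recovered are not those of the real fit. Of simulated log2 changes of 0.5 it recovered 0% in WM983B and 2.99% in SK-Mel5. Of changes of 1 it recovered 56.7% and 62.7%, and of changes of 2, 100%. With 2 arrays in each group, a gene not called is not shown to be unchanged. Alternatives were a replicate block, other scalings, a filter on dim features, trend and robust eBayes, another threshold, fits within a line and leaving out each array. Promoter sequences are from RefSeq (GRCh38.p14); 9 of 10 members matched.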

Additional observations from a re-analysis of the deposited data

Results flagged for a closer look

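The shp300 change of NT5E went opposite ways in the lines on every array, by 3.55 on the log2 scale between them; this difference was not tested, because it chose the gene. Among the other members, the gene lists and the checks EP300 and MITF, limma's interaction test called a difference between the lines (WM983B minus SK-Mel5) for 23 genes. They included 3 of the 8 tested members and 18 of the 108 measured list genes, where 9.46% of all features were called. The members and lists were chosen with earlier results known, so nothing is read from these counts. The checks differed by 0.95 (EP300) and -1.46 (MITF). Among the members these were ENTPD1 (0.96), CD274 (0.91) and CD276 (0.88), whose calls were lost without the arrays named with their values. ENPP1 (1.13) and ADA (-1.02) differed among the nucleotide and adenosine genes, and NECTIN3 (1.58), THBS1 (1.15) and RGMB (1.10), a binding partner of PD-L2, among the partners. SMAD3 (0.77) differed among the factors reported to act on NT5E. Of the other immune regulators CD70 (1.04), TNFRSF14 (-1.64) and BTN3A1 (1.33) differed, and of the complement genes CD59 (1.33) and CD46 (0.69). IFNGR2 (0.64), SOCS3 (-0.98) and STAT3 (1.06) differed in the interferon gamma axis. Among the mesenchymal markers NGFR (2.50), ALCAM (1.41), AXL (1.52) and MCAM (3.29) did. AXL was left out by the filter on dim features, which takes the mean over the 8 arrays of both lines. That filter does not show whether AXL was above background in either line.

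Some of these calls did not survive leaving out 1 array. CD46 (adjusted p = 0.0487 with all arrays) and IFNGR2 (0.0397) lost theirs whichever array was left out, with adjusted p from 0.0651 to 0.161 and from 0.0581 to 0.133. RGMB (0.0237 with all arrays) kept its call only without WM983B shp300 replicate 1 or SK-Mel5 scrambled replicate 2, with adjusted p from 0.0564 to 0.0969 otherwise. EP300 (0.0357) lost its call without 6 of the 8 arrays, with adjusted p up to 0.119. THBS1 lost its call when WM983B scrambled replicate 1 (0.0639) or 2 (0.0672) or SK-Mel5 scrambled replicate 1 (0.0606) was left out. AXL lost it without either WM983B scrambled array (0.07 for replicate 1, 0.0969 for replicate 2), without WM983B shp300 replicate 2 (0.0553), and without replicate 2 of the scrambled (0.08) or shp300 (0.0717) arrays of SK-Mel5. SOCS3 kept its call only without WM983B scrambled replicate 1 or SK-Mel5 shp300 replicate 2, and had adjusted p up to 0.0923 otherwise, without WM983B scrambled replicate 2.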

How the results depend on the processing

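NT5E kept its direction under every setting tried: its change was 2.50 to 2.57 in WM983B and -1.25 to -0.79 in SK-Mel5 when arrays were left out, and the difference 3.33 to 3.78. Leaving out an array gave 3146 to 5398 called features in WM983B, 2143 to 3648 in SK-Mel5 and 885 to 1784 for the difference between lines, against 5352, 3894 and 2250 with all arrays. It gave 1 to 5 called members in WM983B, 1 to 2 in SK-Mel5 and 0 to 2 for the difference, against 5, 2 and 3. The list genes called were then 34 to 48 in WM983B (45 with all arrays), 13 to 22 in SK-Mel5 (23) and 11 to 15 for the difference (18). A group left with 1 array was assumed to vary like the others. From the 4 SK-Mel5 arrays alone, 2050 features and 14 list genes were called. With trend and robust eBayes the difference was called for 28 list genes, and at an adjusted p under 0.1 for 3404 features. With the replicate number as a block, 5025, 3600 and 1843 features were called. The calls of MICA in WM983B (adjusted p = 0.0582) and of the EP300 and IFNGR2 differences (0.0534 and 0.0622) were lost. The block changed no other call among the tested members, EP300, CREBBP, MITF, IRF1 and the list genes named for the smallest p. Replicate 1 arrays of different groups deviated together at r = -0.029 to 0.028, so the numbers were not taken to pair the arrays. Without WM983B scrambled replicate 1 or 2, 3268 and 3146 features were called in WM983B. List counts moved too: without SK-Mel5 scrambled replicate 2, for example, the other immune regulators called higher in SK-Mel5 went from 3 to 0, and the partners called lower there from 2 to 0 without any 1 SK-Mel5 array. Among the members, leaving out dim features removed CD274, PDCD1LG2 and VTCN1, so the CD274 falls were not retested there. Of 162 results for single tested genes, 33 lost their call and 19 gained one under at least 1 setting, and none reversed while called. Outside those 162 results are the genes named after their values were seen, other than IRF1. By Spearman correlation 17 features tied at the highest value with NT5E, of which 1, ADAM9, was among the 5 named. The number of arrays limits all precision.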
